A study of Caenorhabditis elegans with 24 samples.

Results

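The genes of the meiotic chromosome axis and of synapsis were taken by name: rec-8, htp-3, him-3, htp-1, htp-2, syp-1, syp-2, syp-3, him-8 and msh-5. All 10 were found among the 45642 genes of the poly(A) table, among the 8783 genes of the J2-IP table and, by sequence name, among the 8783 genes of the input table. In the RefSeq annotation of the worm genome (assembly WBcel235) 6 of the 10 lie on chromosome IV, 2 (syp-1 and syp-2) on chromosome V and 2 (syp-3 and htp-3) on chromosome I.

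The study asked how loss of TDP-1, the Caenorhabditis elegans ortholog of the RNA-binding protein TDP-43, changes the worm transcriptome and its double-stranded RNA. Animals labelled tdp-1(ok803), a single deletion allele of tdp-1, were compared with wild-type animals of strain N2-CGC B. Poly(A) RNA came from L4 larvae raised at 20°C, with 3 libraries labelled tdp-1(ok803) and 3 wild-type libraries. RNA recovered with J2, an antibody that binds double-stranded RNA, came from extract of young adults raised at 15°C, with 3 libraries labelled tdp-1(ok803) and 3 wild-type libraries made from separate lysates, and 1 input library of each genotype. Every library was made from whole worms, so the RNA of the germ line was mixed with that of all somatic tissues, and fewer germ cells cannot be told apart from less RNA in each germ cell.

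Before chromosomes are halved in meiosis, each chromosome finds its homolog, is organized on a protein axis and is joined to its homolog along its length by the synaptonemal complex. Cohesin with the meiotic subunit REC-8 holds sister chromatids together and forms the base of the axis. HTP-3, HIM-3, HTP-1 and HTP-2 are the worm axis proteins of the HORMA domain family. SYP-1, SYP-2 and SYP-3 build the central region that bridges the paired axes, HIM-8 binds the pairing center of the X chromosome, and MSH-5 stabilizes crossover intermediates. In the worm these proteins are best known from germ cells in meiotic prophase, which fill much of the gonad in L4 larvae and young adults.

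The deposited poly(A) values are read counts scaled by a factor for each library, and undoing that scaling gave 65546397 to 107297985 reads a library. The normalized counts of a J2-IP library summed to between 1332125 and 1387056 under the label tdp-1(ok803) and to between 1046152 and 1065849 in wild type, and the inputs summed to 888366 under the label tdp-1(ok803) and to 900993 in wild type. J2-IP and input values are rounded to whole numbers and their depth is unknown. The targeted gene did not check the labels. Its poly(A) values, as normalized counts, were 915, 3542 and 3478 under the label tdp-1(ok803) and 2156, 3501 and 4322 in wild type. In the input tdp-1 had 12 under the label tdp-1(ok803) and 38 in wild type, but in the J2-IP it had 53, 61 and 50 under the label tdp-1(ok803), above 27, 27 and 25 in wild type. That direction depends on the scale of the J2-IP values. Multiplied by the ratio of the inputs, as described below, the values of tdp-1 under the label tdp-1(ok803) were 16.7, 19.3 and 15.8, below wild type. The tables give 1 value for the whole gene, and which part of it the deletion removes was not analysed here. Replicate 1 stood apart from replicates 2 and 3 in poly(A) RNA of both genotypes: on the first principal component, which holds 55.6% of the variance, replicate 1 was at -89.7 under the label tdp-1(ok803) and at -79.7 in wild type, while the other 4 libraries lay between 27.5 and 64.2. Results for poly(A) RNA are therefore given with and without replicate 1.

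In poly(A) RNA of L4 larvae, none of the 10 axis and synapsis genes separated the genotypes. The libraries labelled tdp-1(ok803) overlapped the wild-type libraries for every one of them. By comparison, 4.43% of the 15807 genes tested had all 3 tdp-1(ok803)-labelled libraries above all 3 wild-type libraries, and 3.49% had them below. The values of the members are given here by role, as normalized counts in replicates 1, 2 and 3.

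The cohesin gene rec-8 had 2487, 1214 and 1540 in the tdp-1(ok803)-labelled libraries and 1601, 1783 and 2860 in wild type. Replicate 1 was the highest of its group under the label tdp-1(ok803) and the lowest in wild type. The axis gene htp-3, which is needed to load the other HORMA domain proteins, showed the same arrangement, with 2893, 2374 and 2718 under the label tdp-1(ok803) and 1876, 3036 and 4253 in wild type. For both genes replicates 2 and 3 were thus lower under the label tdp-1(ok803) than in wild type, and replicate 1 was higher.

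The axis gene him-3 had 2329, 2882 and 2765 under the label tdp-1(ok803) and 2269, 4249 and 3683 in wild type. Wild-type replicates 2 and 3 were above all 3 tdp-1(ok803)-labelled libraries, and wild-type replicate 1 was below them. HTP-1 and HTP-2 are near-identical axis proteins that act in the stepwise release of cohesion, and reads of their genes could be assigned to either copy, so their values are uncertain. The gene htp-1 had 3710, 4779 and 5286 under the label tdp-1(ok803) and 2922, 4977 and 6170 in wild type. The gene htp-2 had 1642, 2313 and 2137 under the label tdp-1(ok803) and 1410, 2444 and 3118 in wild type. In both genes the wild-type libraries spanned the tdp-1(ok803)-labelled libraries on both sides.

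Among the genes of the central region, syp-1 had 2595, 1611 and 1521 under the label tdp-1(ok803) and 1902, 2274 and 1524 in wild type. The gene syp-2 had 711, 1680 and 1411 under the label tdp-1(ok803) and 736, 1464 and 1191 in wild type, with replicate 1 lowest in each genotype. The gene syp-3 had 640, 514 and 481 under the label tdp-1(ok803) and 654, 648 and 458 in wild type. In the annotation syp-1 overlaps the protein-coding gene F13A7.14 and syp-3 overlaps mrt-1. The poly(A) libraries do not mark strand, so reads from such overlaps cannot be told apart. The pairing center gene him-8 had 509, 766 and 598 under the label tdp-1(ok803) and 667, 711 and 432 in wild type. The crossover gene msh-5 had 1482, 775 and 711 under the label tdp-1(ok803) and 1238, 1176 and 741 in wild type. Neither gene kept 1 direction over the 3 replicates.

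**Figure D1:**
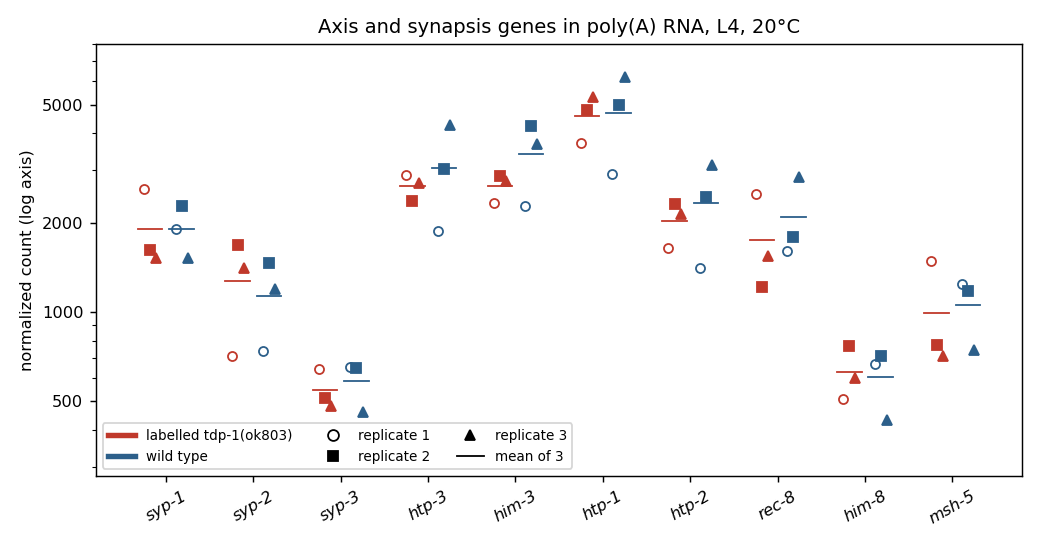
Normalized counts (log axis) of the 10 genes in poly(A) RNA of L4 larvae, with libraries labelled tdp-1(ok803) in red to the left of wild-type libraries in blue; each symbol is 1 library and each bar is the mean of 3. For every gene the 2 genotypes overlap, and for rec-8 and htp-3 the open circle of replicate 1 is at the top under the label tdp-1(ok803) and at the bottom in wild type.

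The fit over all 3 replicates gave the same picture. With limma on log2(normalized count + 1), a gene was called at an adjusted p under 0.05 (Benjamini-Hochberg over 15807 genes), and 0 of the 10 genes were called. The background was also 0% in each direction. None of the 10 had an unadjusted p under 0.05, against 413 of all genes tested, and edgeR and DESeq2 on the recovered reads also called 0 of the 10. The log2 fold changes, tdp-1(ok803) over wild type, lay between -0.31 ± 0.29 (SE, n = 3 each) for him-3 and 0.13 ± 0.41 for syp-2, with adjusted p = 1.00 for each. Their median was -0.11, against -0.02 for all genes tested. The standard errors of the members lay between 0.29 and 0.41, so differences of this size were not detectable with these libraries.

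Replicate 1 differed from replicates 2 and 3 in different ways across the 10 genes. It was below both other replicates in both genotypes for syp-2, him-3, htp-1 and htp-2, which are 4 of 10 genes, against a background of 28.9% of all genes tested. It was above both in both genotypes for syp-3 and msh-5, 2 of 10 genes against 29.3%. For syp-2 the log2 difference between replicate 1 and the mean of the other replicates was -1.11 under the label tdp-1(ok803) and -0.84 in wild type. For msh-5 it was 1.00 under the label tdp-1(ok803) and 0.41 in wild type. For rec-8 it was 0.86 under the label tdp-1(ok803) and -0.50 in wild type, and for htp-3 it was 0.19 and -0.94 in the same order. The median over the 10 genes was -0.04 under the label tdp-1(ok803) and -0.65 in wild type, against 0.02 and 0.04 for all genes. These are single libraries, and the differences between genotypes were not tested.

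**Figure D2:**
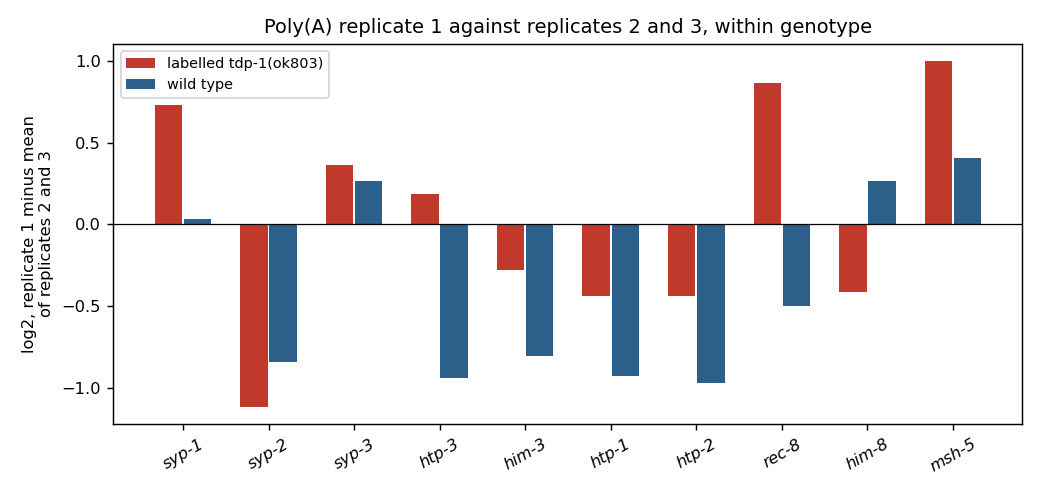
Log2 difference between poly(A) replicate 1 and the mean of replicates 2 and 3 for each gene, within the tdp-1(ok803)-labelled libraries (red, left) and within wild type (blue, right). Replicate 1 was low in both genotypes for syp-2, him-3, htp-1 and htp-2, and the genotypes had opposite signs for htp-3, rec-8 and him-8.

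In replicates 2 and 3 alone 8 of the 10 genes had a lower log2 fold change than over 3 replicates, and 2 (syp-2 at 0.22 and him-8 at 0.29) had a higher one. The median over the 10 genes was -0.28, against -0.0038 for all genes, and 8 of the 10 were negative. No member was called by limma, where 2.09% of genes were called higher and 2.2% lower. Of the members, 3 (him-3, htp-3 and rec-8) were lower at an unadjusted p under 0.05 in limma. At that threshold 1955 of 15807 genes were lower and 1609 higher. With the replicate number as a block these 3 were called lower under the label tdp-1(ok803). The log2 fold change of rec-8 was -0.72 ± 0.19 (adjusted p = 0.00292), that of htp-3 was -0.50 ± 0.18 (adjusted p = 0.0405) and that of him-3 was -0.49 ± 0.18 (adjusted p = 0.0460), each SE over 2 libraries a genotype in a limma fit. In that fit 8.72% of all genes were called lower and 7.41% higher. Over all 3 replicates the block called none of the 10, with an adjusted p of 0.759 for rec-8 in limma, where 0.00633% of genes were called higher and 0% lower. These calls thus rest on leaving out replicate 1 and on pairing the libraries by replicate number.

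Markers of the germ line and of its products differed between the same libraries. The 12 germ cell markers, of which nos-2 was listed at 0 in every poly(A) library, summed to between 72323 and 115115 normalized counts in the tdp-1(ok803)-labelled libraries and to between 75037 and 193721 in wild type. The 11 oocyte and eggshell genes summed to between 11246 and 18828 under the label tdp-1(ok803) and to between 13640 and 41215 in wild type. The 14 sperm genes, of which spe-26 and msp-31 were at 0, summed to between 8579 and 11720 under the label tdp-1(ok803) and to between 8777 and 21598 in wild type. In each of these lists the genotypes overlapped through replicate 1 of wild type. The 6 yolk genes, which are made in the intestine of adult hermaphrodites and not in germ cells, summed to between 88283 and 149463 under the label tdp-1(ok803), all below the 186941 to 523411 of wild type.

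The fold changes of these lists showed the same order. Over 3 replicates their median log2 fold changes were -0.45 for the germ cell markers (11 of 11 tested were negative), -0.67 for oocyte and eggshell genes (11 of 11), -0.67 for sperm genes (12 of 12) and -1.40 for yolk genes (6 of 6), and limma called 0 genes of these lists. At an unadjusted p under 0.05 limma found 0 of the germ cell markers and sperm genes, 1 oocyte and eggshell gene and 3 yolk genes lower. At the same unadjusted threshold edgeR found 1 oocyte and eggshell gene and 6 yolk genes lower, and DESeq2 found 4 and 6, with 0 germ cell markers and 0 sperm genes in both. Of all 15807 genes tested 174 were lower at that threshold in limma, 185 in edgeR and 295 in DESeq2. At an adjusted p under 0.05 edgeR called 0 and DESeq2 called 1 yolk gene. In replicates 2 and 3 limma called 6 of 11 germ cell markers, 8 of 11 oocyte and eggshell genes, 4 of 12 sperm genes and 6 of 6 yolk genes lower under the label tdp-1(ok803), against 2.2% of all genes called lower and 2.09% higher. The 10 axis and synapsis genes together summed to between 18907 and 19168 normalized counts under the label tdp-1(ok803), within the 15274 to 24430 of wild type. The part of these markers in the values of the axis and synapsis genes was not tested.

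The members were also set against their own mean profile over the 6 poly(A) libraries. The root mean square distance of each gene from their mean profile, on the log2 scale and with each gene centred on its own mean, lay between 0.207 for him-3 and 0.446 for msh-5. Outside the lists, and among genes above the median level, the 5 nearest to that mean profile were W03A5.4, C55C3.5, dph-2, R151.10 and F23H11.2, at distances between 0.0275 and 0.0589. The nearest, W03A5.4, had 1437, 1444 and 1439 normalized counts under the label tdp-1(ok803) and 1230, 1709 and 1583 in wild type. The mean profile itself lay between -0.08 and -0.01 on the centred log2 scale under the label tdp-1(ok803), and at -0.22, 0.23 and 0.12 in wild type. These 5 genes were chosen as the nearest of all, so their distances are not comparable with those of the members.

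In the J2-IP of young adults the central region genes, htp-3, htp-2 and him-8 gave higher values under the label tdp-1(ok803), while rec-8, msh-5, him-3 and htp-1 did not pass the test. A gene was called at p under 0.05 and adjusted p under 0.1 in limma over 7058 genes. By this rule 6 of the 10 were called higher and 0 lower. The same was true of 49.8% of all genes tested (higher) and 5.99% (lower), and the median log2 fold change of all genes was 0.25, so a share of 6 in 10 is near the background. J2-IP values are normalized counts, given here for replicates 1, 2 and 3.

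The largest change among the 10 was that of syp-2. It had 20, 16 and 21 in the tdp-1(ok803)-labelled libraries and 9, 7 and 8 in wild type, so every library labelled tdp-1(ok803) was above every wild-type library. Its log2 fold change was 1.15 ± 0.14 (SE, n = 3 each, adjusted p = 0.000738 in limma). All 3 wild-type values were under the minimum of 10, so syp-2 entered the test through the tdp-1(ok803)-labelled libraries alone. Without that filter its adjusted p was 0.00227, and a rounding step of 1 is a large part of its wild-type values.

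The other central region genes changed less. For syp-3 the values were 20, 19 and 17 under the label tdp-1(ok803) and 14, 11 and 12 in wild type, with a log2 fold change of 0.56 ± 0.12 (adjusted p = 0.00755). For syp-1 they were 43, 38 and 37 under the label tdp-1(ok803) and 33, 28 and 31 in wild type, with a log2 fold change of 0.35 ± 0.10 (adjusted p = 0.0212). In both genes the genotypes did not overlap. The J2-IP libraries are strand-specific, but the counting setting used for their genes was not given in the sources used here, so the overlaps of syp-1 and syp-3 with other genes remain a limit.

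Among the axis genes, htp-3 had 82, 70 and 75 under the label tdp-1(ok803) and 59, 51 and 54 in wild type, without overlap, and its log2 fold change was 0.46 ± 0.09 (adjusted p = 0.00471). The gene htp-2 had 24, 23 and 20 under the label tdp-1(ok803) and 17, 17 and 19 in wild type, with a log2 fold change of 0.32 ± 0.11 (adjusted p = 0.0396). Its near copy htp-1 had 30, 27 and 24 under the label tdp-1(ok803) and 24, 22 and 24 in wild type, where the genotypes met at 24, and was not called (0.20 ± 0.11, adjusted p = 0.159). The gene him-3, with 49, 40 and 44 under the label tdp-1(ok803) and 44, 40 and 38 in wild type, overlapped and was not called (0.12 ± 0.10, adjusted p = 0.360).

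The cohesin gene rec-8 had 128, 123 and 113 under the label tdp-1(ok803) and 124, 115 and 123 in wild type. The genotypes overlapped, and its log2 fold change was 0.01 ± 0.07 (adjusted p = 0.947). The crossover gene msh-5 had 99, 94 and 95 under the label tdp-1(ok803) and 101, 91 and 99 in wild type, with a log2 fold change of -0.01 ± 0.07 (adjusted p = 0.885). These were the smallest standard errors of the 10. The pairing center gene him-8 had 18, 17 and 15 under the label tdp-1(ok803) and 14, 10 and 14 in wild type, did not overlap and was called at a log2 fold change of 0.38 ± 0.15 (adjusted p = 0.0700). The 6 genes without overlap are the 6 called higher, and 49.6% of all genes had all libraries labelled tdp-1(ok803) above all wild-type libraries and 5.92% had them below. With the replicate block the same 6 genes were called, where 51% of all genes were called higher and 6.8% lower.

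**Figure D3:**
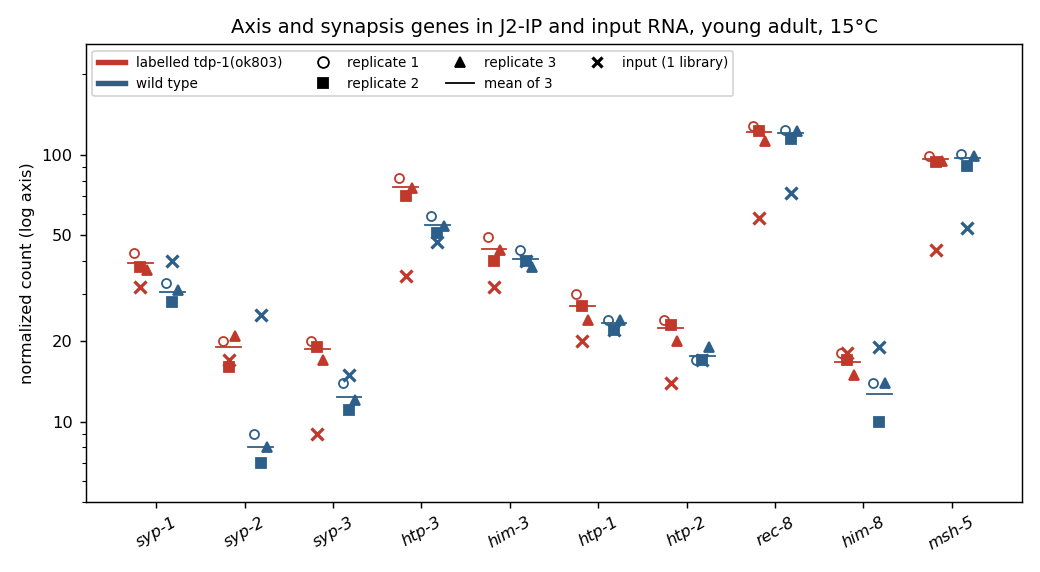
Normalized counts (log axis) of the 10 genes in J2-IP and input RNA of young adults, with libraries labelled tdp-1(ok803) in red to the left of wild-type libraries in blue; symbols are single J2-IP libraries, bars their means and crosses the single input library of each genotype. The genotypes do not overlap in the J2-IP for syp-1, syp-2, syp-3, htp-3, htp-2 and him-8, and every input cross is lower under the label tdp-1(ok803).

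The call of htp-2 was lost without replicate 1 of either genotype and without replicate 2 under the label tdp-1(ok803) (adjusted p from 0.105 to 0.116). That of him-8 was lost without replicate 1 or replicate 2 under the label tdp-1(ok803) and without replicate 2 of wild type (adjusted p from 0.146 to 0.185). Without replicate 3 under the label tdp-1(ok803), htp-1 was called as well (0.28, adjusted p = 0.0566). The calls of syp-1, syp-2, syp-3 and htp-3 held in each of these 6 fits.

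How the J2-IP values were scaled decided several calls. The input of both genotypes bears on this, because the methods of the study state that J2-IP counts were normalized to input. Each of the 10 genes was lower in the input library labelled tdp-1(ok803) than in the wild-type input, with ratios between 0.6 (syp-3) and 0.947 (him-8) and a median of 0.803. Of all genes with values in both inputs 67.7% were below 1, and their median ratio was 0.867. With 1 library a genotype no test was possible. The values were 58 under the label tdp-1(ok803) and 72 in wild type for rec-8, 44 and 53 for msh-5, 35 and 47 for htp-3, 17 and 25 for syp-2, and 9 and 15 for syp-3, in the same order.

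Across 6868 genes the J2-IP log2 fold change was related to the log2 ratio of the inputs with r = -0.53, a description across genes that share these libraries. If the J2-IP values had been scaled gene by gene to input, a shift of r in the negative direction would be built in. This r is therefore not a result either. To see what the scaling does, the J2-IP values labelled tdp-1(ok803) were multiplied gene by gene by the input ratio, which assumes that these values had been scaled to the wild-type input. The relation across genes then had the opposite sign (r = 0.48). A shift of r in the positive direction is built in, because multiplication adds the same log2 input ratio to the fold change, so this turn is not a result. On the multiplied scale syp-2 had 13.6, 10.9 and 14.3 under the label tdp-1(ok803) and 9, 7 and 8 in wild type, without overlap, and was called higher (0.63 ± 0.14, adjusted p = 0.0190). The genes rec-8 and msh-5 were called lower: rec-8 had 103.1, 99.1 and 91.0 under the label tdp-1(ok803) and 124, 115 and 123 in wild type (-0.30 ± 0.07, adjusted p = 0.0248), and msh-5 had 82.19, 78.04 and 78.87 under the label tdp-1(ok803) and 101, 91 and 99 in wild type (-0.28 ± 0.07, adjusted p = 0.0273). The other 7 genes were not called, and syp-3 took the opposite sign (-0.12 ± 0.12). Of all genes 16.4% were called higher and 16.4% lower on this scale. The ratio of each gene comes from 1 input library a genotype and enters the limma fit as a fixed number. The SE, p-values and calls on this scale therefore leave out the error of that ratio, which could not be measured.

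Median-of-ratios scaling sets the median gene near 0 and does not use the input, and it placed syp-3 above 0 again. The genes syp-2 (0.91), syp-3 (0.32) and htp-3 (0.21) were called higher, and msh-5 (-0.27) and rec-8 (-0.25) lower, where 24.4% of all genes were called higher and 24.9% lower. With equal library totals syp-2 (0.82) was called higher, and msh-5 (-0.37) and rec-8 (-0.35) lower, where 14.2% were called higher and 28.7% lower. On each of these scales syp-2 was called higher, but its deposited wild-type values were all under the minimum, so alternatives that share this filter are not separate support for the call. The fit without the filter, on the deposited scale, gave an adjusted p of 0.00227 in limma. The calls of rec-8 and msh-5 as lower were absent from the deposited scale, and relative to the median gene of that scale their log2 fold changes were -0.24 for rec-8 and -0.27 for msh-5.

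**Figure D4:**
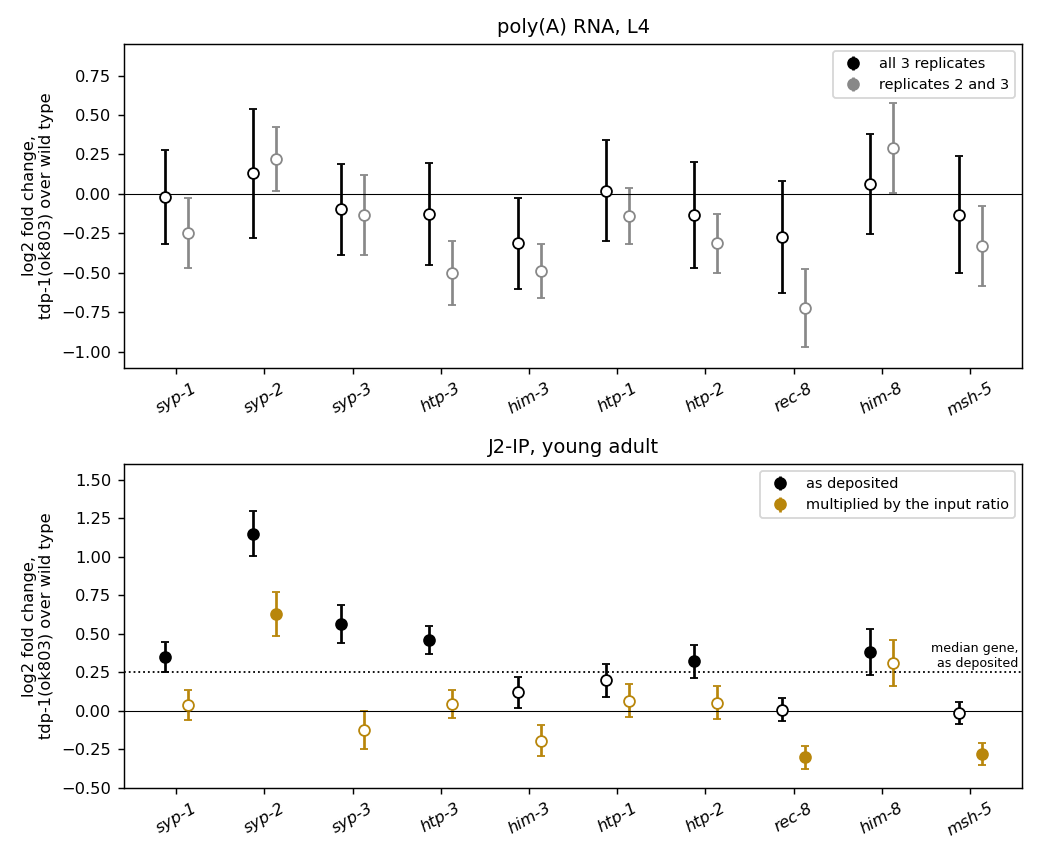
Log2 fold changes, tdp-1(ok803) over wild type, with SE from limma; filled symbols passed the threshold of their assay. The upper panel shows poly(A) RNA over all 3 replicates (black) and in replicates 2 and 3 (grey), where no gene is filled. The lower panel shows the J2-IP as deposited (black, median gene dotted) and after multiplication by the input ratio (gold), where syp-2 is filled in both and rec-8 and msh-5 are filled below 0 in gold alone. The gold SE leaves out the error of the input ratio.

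J2-IP over input gave the members different positions among all genes. Over the wild-type input, the mean of the 3 wild-type J2-IP libraries was 1.83 ± 0.10 for msh-5 and 1.68 ± 0.07 for rec-8 (SD, n = 3), the only 2 of the 10 above the 1.5-fold that the study used to call a transcript enriched. Of all genes 29.6% were above it. With equal library totals msh-5 (1.56) was the only member above it, and 20.2% of all genes were. The study also required the increase over input to be significant. That was not tested here with 1 input library, so these ratios are not its enrichment calls. The axis genes htp-3 (1.16), htp-1 (1.06), htp-2 (1.04) and him-3 (1.02) lay near the median of all genes, 1.15. Below them were syp-3 (0.82), syp-1 (0.77) and him-8 (0.67), and syp-2 (0.32 ± 0.04) was lowest, at percentile 5.18 of 8431 genes. Across the 3 libraries the values of the neighbours rec-8 and msh-5 overlapped, as did those of the 4 axis genes. Within each library, however, msh-5 was above rec-8, and htp-3 was above him-3, htp-1 and htp-2. The gene syp-2 was below every other member in each library. The ratios of a gene, here and in the next paragraph, all share 1 value of the single wild-type input library. Their SD and their order within libraries therefore leave out the error of that value.

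Over the same wild-type input, the tdp-1(ok803)-labelled libraries had means of 1.81 ± 0.05 for msh-5, 1.69 ± 0.11 for rec-8, 1.61 ± 0.13 for htp-3 and 0.76 ± 0.11 for syp-2. The lowest mean was that of syp-2, whose libraries overlapped those of him-8 (0.88), and htp-3 passed 1.5 as well. By these means 3 of the 10 members were above 1.5, against 43.1% of all genes. A fit of the genes above 1.5-fold in either genotype tested htp-3, rec-8 and msh-5 alone. The gene htp-3 passed that filter only through the tdp-1(ok803)-labelled libraries, so its call as higher in that fit is given without weight, and 42.7% of genes there were called higher and 8.12% lower. The median of all genes was 1.40 in these libraries. Whether the wild-type J2-IP values had been divided by input is not given in the sources used here, so the ratios describe the deposited values alone.

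**Figure D5:**
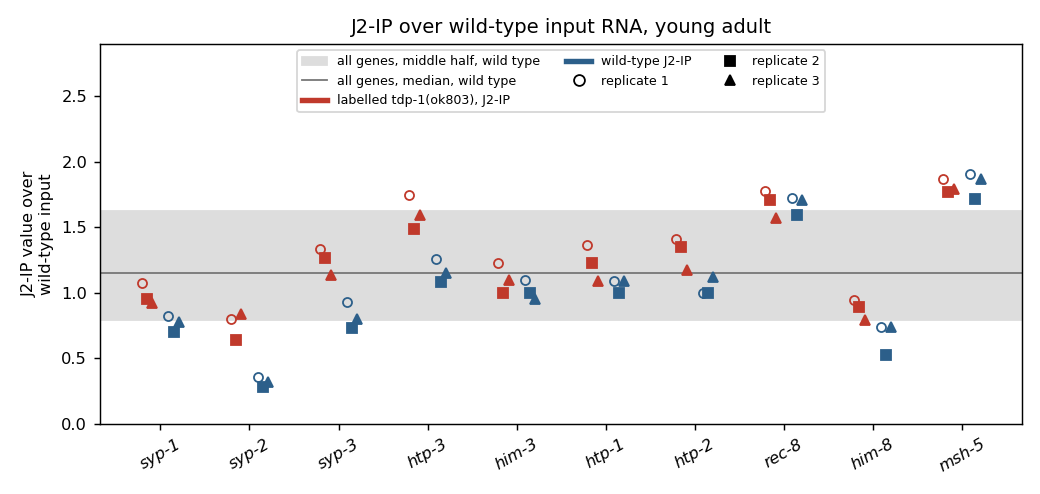
J2-IP value over the wild-type input value for each gene, with libraries labelled tdp-1(ok803) in red to the left of wild-type libraries in blue; each symbol is 1 library, the grey line is the median of all genes in wild type (1.15) and the grey band their interquartile range. All 3 wild-type libraries of msh-5 lie above the band, those of rec-8 lie at its upper edge, and those of syp-2 lie far below it.

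The order of the members by level differed between L4 poly(A) RNA and young adult input RNA. Among the 8599 genes listed in both, msh-5 was at percentile 69.7 in the input labelled tdp-1(ok803) and 71.6 in the wild-type input, and between 32.8 and 45.4 in poly(A) libraries labelled tdp-1(ok803) and between 33.2 and 42.6 in wild-type poly(A) libraries. The gene rec-8 was at 76.9 in the input labelled tdp-1(ok803) and 78.5 in the wild-type input, and between 42.8 and 57.5 in poly(A) libraries labelled tdp-1(ok803) and between 48.6 and 61.6 in wild-type poly(A) libraries. The opposite held for htp-1, at 45.3 in both inputs, against 67.8 to 78.7 in poly(A) libraries labelled tdp-1(ok803) and 63.1 to 79.1 in wild-type poly(A) libraries. Of the other members, syp-1 (60.3 and 63.7) and him-8 (42.1 and 40.6) were also above all poly(A) libraries in the input labelled tdp-1(ok803) and in the wild-type input, in that order, and htp-2 (34.9 and 37.3) was also below all of them. For syp-3 the input labelled tdp-1(ok803) (23.2) was below all poly(A) libraries and the wild-type input (33.8) was above all of them. For syp-2, him-3 and htp-3 the inputs lay within the range of all poly(A) libraries. Stage, temperature, RNA selection and library kit all differ between the tables, their effects cannot be told apart, and the values are not per length, so no test was made.

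Other meiosis genes showed the same dependence on scale. On the deposited J2-IP scale limma called 3 of 7 genes of pairing and the meiotic nuclear envelope higher, 7 of 10 of cohesin and cohesion, 14 of 21 of double-strand breaks and crossovers (with 2 lower) and 2 of 5 synapsis and axis regulators, against 49.8% of all genes higher and 5.99% lower. Their median log2 fold changes were 0.21, 0.28, 0.41 and 0.15, against 0.25 for all genes and 0.33 for the 10 axis and synapsis genes. After multiplication by the input ratio 0, 0, 2 and 0 genes of these lists were called higher and 0, 1, 3 and 1 lower. On that scale 16.4% of all genes were called higher and 16.4% lower. Of the 21 break and crossover genes 20 were tested there, and the medians of these lists lay between -0.06 and 0.04. In poly(A) RNA limma called 0 genes of any of these lists over 3 replicates, with 0 at an unadjusted p under 0.05 in limma, edgeR or DESeq2 and 0 called by any of the 3 tools, and their medians lay between -0.20 and -0.04. In replicates 2 and 3 limma again called 0. At an unadjusted p under 0.05 in limma 3, 3, 5 and 2 genes were lower, against 1955 of all 15807 genes tested. The medians were -0.40, -0.31, -0.25 and -0.19 in the same order of lists. With the replicate block 3 of 6 pairing genes, 2 of 10 cohesin genes and 2 of 21 break and crossover genes were called lower in replicates 2 and 3, and 0 of 5 regulators, against 8.72% of all genes and 3 of the 10 axis and synapsis genes.

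The genes of these lists with the largest J2-IP increases were com-1 (0.96 ± 0.08, adjusted p = 0.000161), which acts in the resection of meiotic breaks, dsb-2 (0.91 ± 0.13, adjusted p = 0.00132), which promotes break formation, lab-1 (0.69 ± 0.21, adjusted p = 0.0285), which protects cohesion on the long arm of the bivalent, him-5 (0.65 ± 0.17, adjusted p = 0.0148), which promotes breaks on the X chromosome, and him-18 (0.63 ± 0.08, adjusted p = 0.000767), a scaffold of resolving nucleases. The 2 that were lower were zhp-3 (-1.05 ± 0.11, adjusted p = 0.000405), a crossover factor of the RING family, and brd-1 (-0.87 ± 0.13, adjusted p = 0.00148), the partner of BRC-1. After multiplication by the input ratio com-1 (0.24) and dsb-2 (0.54) were still called higher and zhp-3 (-0.71) lower, and the other 4 were not called, with him-18 taking the opposite sign (-0.10).

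A pair of known partners of the members were named for their role after their values were seen. HIM-14 is the MSH4-type partner of MSH-5, and him-14 was called higher in the J2-IP (0.50 ± 0.08, adjusted p = 0.00227) while msh-5 was at -0.01. SYP-4 is another protein of the central region, and syp-4 was called higher on the deposited scale (0.60 ± 0.06, adjusted p = 0.000285 in limma), with a log2 fold change below that of syp-2. Of all genes tested on that scale 49.8% were called higher and 5.99% lower. After multiplication by the input ratio him-14 (0.21, adjusted p = 0.103) and syp-4 (0.03, adjusted p = 0.745) were not called in limma, where 16.4% of all genes were called higher and 16.4% lower. The differences between partners were not tested.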

How the data were processed

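Poly(A), J2-IP and input RNA of animals labelled tdp-1(ok803) and of wild type were used, 14 of the 24 samples of the series. The members and lists were chosen with earlier results of these data known. The poly(A) table deposited by the authors gives each gene a normalized count (a scaled signal) made from reads mapped to WS220. Whole reads came back for 100% of values (tolerance 0.05 reads), at 0.785 to 1.34 normalized counts per read. J2-IP and input values were deposited as whole numbers, normalized counts that the authors had rounded, and were treated here as a score. The methods state that J2-IP counts were normalized to input, and how is not given in the sources used here. The submitters' processing notes name TopHat2 2.0.10, Bowtie2 2.1.0, HTSeq 0.5.4p3 and DESeq 1.16. The editing and ChIP files, which hold the authors' own comparisons and peaks, were not used here.

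Genes with a value of at least 10 in at least 3 libraries were fitted with limma 3.58.1 in R 4.3.3 on log2(value + 1), with the trend option and p-values adjusted by Benjamini-Hochberg over all genes tested, so fold changes are on that scale. Calls needed an adjusted p under 0.05 for poly(A) RNA, and p under 0.05 with an adjusted p under 0.1 for the J2-IP. The J2-IP replicates came from separate lysates, and the study describes 2 poly(A) replicates of each genotype as independent. Nothing says this of the third, so poly(A) p-values measure the spread between these samples. J2-IP genes were joined to input genes by name (8599 genes, with 176 unmatched and 8 that share a partner). Python 3.11.15 with pandas 2.3.3 and matplotlib 3.10.9 was used for tables and plots.

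Libraries with the same replicate number deviated together from their genotype means across genes, with correlations of 0.657, 0.435 and 0.353 for poly(A) replicates 1 to 3 and of 0.388, 0.760 and 0.547 for J2-IP replicates, so a fit with a replicate block was run beside the main one. Some unlike numbers did so too. In poly(A) RNA tdp-1(ok803)-labelled replicate 3 with wild-type replicate 2 gave 0.380, and 2 with 3 gave 0.305. In the J2-IP 3 with 1 gave 0.477. The remaining unlike pairs lay between -0.656 and 0.203. The labels name no shared batch, so the block assumes that like numbers belong together. Alternatives were edgeR 4.0.16 and DESeq2 1.42.0 on the recovered reads, other pseudocounts, filters and scalings, multiplication of the J2-IP values labelled tdp-1(ok803) by the input ratio, the 1.5-fold filter over input, and each library left out. The fits were tested on simulated data. The genes named by plan are the 10 members, tdp-1, at most 5 called genes in each direction from the other meiosis lists, and the 5 genes of nearest poly(A) pattern. Named as well are him-14 and syp-4, chosen for their role after their values were seen, and genes that overlap members or were at 0. Germ cell, oocyte and eggshell, yolk, sperm, body wall muscle, neuron, intestine and hypodermis lists gave the marker levels.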

Additional observations from a re-analysis of the deposited data

How the results depend on the processing

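In poly(A) RNA the number of axis and synapsis genes called was 0 in each alternative, including each library left out (0 to 0), except for replicates 2 and 3 with a replicate block, where 3 were lower. Over 3 replicates the replicate block called 1 gene of 15807, and no member, and DESeq2 called 7 genes higher and 10 lower, against 0 for limma. In replicates 2 and 3 limma called 330 genes higher and 348 lower, and with the block 1171 and 1378. Directions near 0 turned with the setting: syp-1 was at 0.082 with equal totals, 0.021 in edgeR and 0.0055 in DESeq2, syp-3 was at 0.00097 with equal totals, and htp-1 was at -0.019 in edgeR, -0.031 in DESeq2 and -0.14 in replicates 2 and 3, with or without the block. With each library left out, log2 fold changes ranged from -0.26 to 0.13 for syp-1, -0.15 to 0.50 for syp-2, -0.29 to 0.25 for htp-1, -0.46 to 0.11 for htp-2, -0.44 to 0.15 for htp-3, -0.16 to 0.20 for him-8, -0.47 to 0.064 for msh-5 and -0.84 to 0.14 for tdp-1.

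In the J2-IP, 6 members were called higher on the deposited scale and 4 to 7 with each library left out. The count higher was 1 at a minimum of 50 (3 members tested), 1 with equal totals, 3 with median-of-ratios and 3 with quantile scaling, 1 after multiplication by the input ratio, with or without the replicate block, and 1 under the 1.5-fold filter over input (3 members tested). The count lower was 2 with equal totals, median-of-ratios, quantile scaling and multiplication by the input ratio, also with the block, so that 3 were called in all with equal totals and after multiplication. The block on the deposited scale changed no call of a member. The block after multiplication was chosen after seeing the data. Directions turned as follows. Multiplication by the input ratio, with or without the block, gave -0.12 for syp-3, -0.19 for him-3, -0.30 for rec-8 and -0.59 for tdp-1. Equal totals gave -0.23 for him-3, -0.15 for htp-1, -0.021 for htp-2 and -0.35 for rec-8. Median-of-ratios gave -0.13 for him-3, -0.049 for htp-1 and -0.25 for rec-8, and quantile scaling -0.15, -0.057 and -0.24 in that order. With each library left out rec-8 ranged from -0.032 to 0.057 and msh-5 from -0.059 to 0.016. Over all genes 3515 of 7058 were called higher and 423 lower as deposited. The numbers higher and lower were 3872 and 710 of 8767 without the filter, and 1825 and 214 of 3391 at a minimum of 50. Of 7058 genes they were 1005 and 2025 with equal totals, 1724 and 1754 with median-of-ratios, and 1635 and 1766 with quantile scaling. After multiplication by the input ratio they were 1126 and 1127 of 6868, and 1196 and 1142 with the block. Under the 1.5-fold filter they were 1693 and 322 of 3964. With each library left out 3022 to 3597 of 7058 genes were called higher and 312 to 480 lower. The median J2-IP over input ratio of the members was 1.03, 1.00 in replicate 2 and 0.876 with equal totals, and their median input ratio, 0.803, was 0.814 with equal totals. The cause of these turns was not tested.

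Depth limits the J2-IP and input values, which are whole numbers as low as 7, and a single input library of each genotype leaves no measure of its error.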

Other observations

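Genes of somatic tissues gave the J2-IP values of other cells in the same lysates. On the deposited scale limma called 6 of 6 yolk genes higher under the label tdp-1(ok803), 6 of 7 genes of body wall muscle, 4 of 4 of the intestine, 3 of 3 of the hypodermis, 4 of 11 of oocytes and the eggshell, and 7 of 12 germ cell markers (with 1 lower). Of all genes tested 49.8% were called higher and 5.99% lower, so the shares of oocyte and eggshell genes and of germ cell markers are near the background. The median log2 fold changes of these lists were 0.57, 0.34, 0.71, 0.71, 0.15 and 0.20 in that order, against 0.25 for all genes. Of 4 sperm genes tested 1 was called lower and none higher, and of 2 neuron genes 1 was higher and 1 lower. After multiplication by the input ratio 0 yolk genes were called by limma (0 at an unadjusted p under 0.05), 1 muscle gene was higher and 3 lower, 3 intestine genes were higher, 2 hypodermis genes were higher and 1 lower, 4 oocyte and eggshell genes were higher and 1 lower, 2 germ cell markers were higher and 2 lower, 4 of 4 sperm genes were lower, and 1 neuron gene was lower, where 16.4% of all genes were called higher and 16.4% lower.

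In poly(A) RNA of L4 larvae the lists of muscle, neurons, intestine and hypodermis had median log2 fold changes of -0.18, 0.15, -0.44 and 0.05 over 3 replicates, with 0 genes called by limma, edgeR or DESeq2 and 1 hypodermis gene at an unadjusted p under 0.05 in each. In replicates 2 and 3 their medians were -0.34, 0.36, -0.52 and -0.05 in the same order. There limma called 1 intestine gene lower (4 of 6 at an unadjusted p under 0.05), 1 hypodermis gene higher and 1 lower, and 0 genes of muscle (2 lower at an unadjusted p under 0.05) or neurons (0), against 2.09% of all genes higher and 2.2% lower. At the unadjusted threshold 1955 of all 15807 genes tested were lower in limma and 1609 higher.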
